A study of Mus musculus with 36 samples.

Results

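The transcriptome of HP1α-deficient conventional CD4 T cells (Tconv) that had met regulatory T cells (Treg) was compared with that of wild-type (WT) Tconv of the same mouse line, taken from the same setting. The members were the 3 HP1a KO and the 3 HP1a WT libraries that the labels give as Tconv transferred with Treg, 6 of the 36 libraries in the series. They were chosen by genotype and condition alone, with no measured value. HP1α, the product of Cbx5, binds histone H3 methylated at lysine 9 and keeps heterochromatin compact and its genes silent. HP1β (Cbx1) and HP1γ (Cbx3) are its paralogs. Treg restrain the expansion and effector functions of other T cells, and T cells held under lasting antigen or suppression can take on an exhausted state, in which inhibitory receptors such as PD-1, LAG-3 and TIM-3 stay on the surface and the transcription factor TOX is high.

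The study profiled splenic CD4 T cells of 2 mouse lines, HP1a and HP1g, each as WT or KO, and each as naive cells, as Tconv transferred alone or as Tconv transferred with Treg, with 3 libraries in each of 12 groups. Lethally irradiated C57BL/6 hosts had received C57BL/6 and semi-allogeneic B6D2F1 bone marrow together with the naive CD4 T cells, and the question behind the comparison used here was how far Treg control T cells that lack HP1α. All 6 libraries therefore came from Tconv that had been co-injected with ex vivo expanded WT Treg, and their labels differ by genotype alone. In the HP1a line the floxed Hp1a allele had been excised in the germ line with a CMV-cre transgene, so the deletion was present in all tissues of the KO donors and not in T cells alone, and the WT cells came from littermates of a heterozygous intercross. Donor-reactive cells had been sorted from the spleen as CD4 T cells with the Vβ6 T cell receptor chain, without the congenic marker of the Treg and without the donor H-2Kd molecule. The labels number the replicates and do not say whether they came from separate hosts, so each p-value measures the spread between these libraries.

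Each library held 37910080 to 53820942 estimated read counts. Levels are given as CPM, the counts of a gene scaled to a common library total and corrected for composition over 35 libraries, and are comparable for 1 gene across libraries but not between genes of different length. WT replicate 3 stood apart within its group. The mean chi-square per gene between WT replicates 1 and 2 was 48.6, against 304 and 330 between each of them and WT replicate 3, and 41 to 81.8 within the KO group. Its 10 most abundant genes held 9.34% of its counts, against 5.08% to 5.78% in the other 5 libraries. The KO libraries carried more RNA of granulocyte and red cell genes. The summed level of 18 neutrophil markers was 475, 298 and 545 CPM in KO replicates 1 to 3 and 9.95, 12.2 and 48.2 CPM in the WT replicates, and that of 11 erythroid and platelet markers was 594, 114 and 719 CPM in KO and 3.07, 4.53 and 50.1 CPM in WT. Neither pair of ranges overlapped. Of the neutrophil markers, 1 to 3 were at 0 in each KO library and 5 to 12 in each WT library. Macrophage and dendritic markers, 16 in number, summed to 121 to 524 CPM in KO and 121 to 197 CPM in WT. For B lineage markers the sums were 348 to 1009 CPM against 249 to 852 CPM, and for CD8 T and NK markers 7.92 to 12.1 CPM against 13.3 to 27.7 CPM. The 8 CD4 T cell markers summed to 6781 to 7460 CPM in KO and 9246 to 11750 CPM in WT, with none at 0 in any library. The part of these other cells in the results below was not tested. In bulk RNA, more cells of a type and more RNA per cell cannot be told apart.

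**Figure D1:**
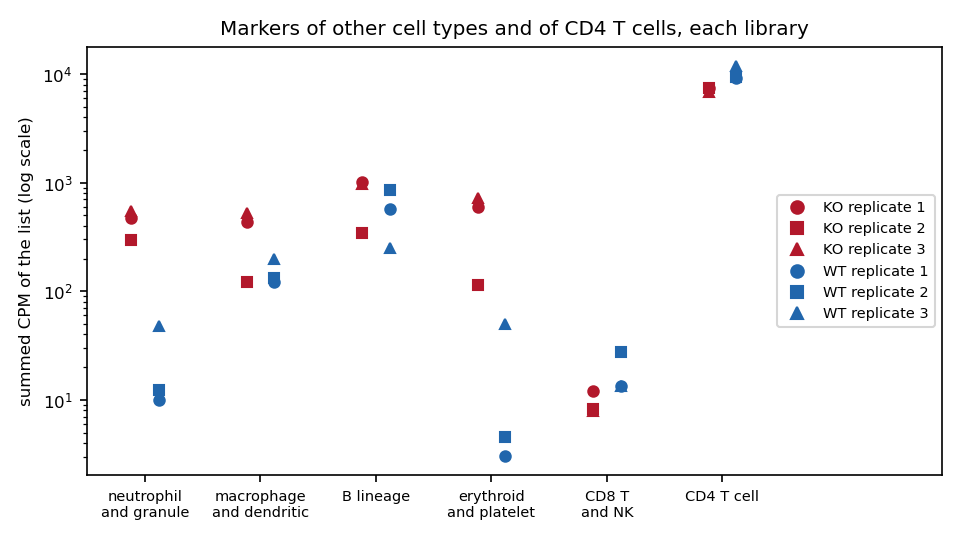
Summed CPM (log scale) of the marker lists of 5 other cell classes and of CD4 T cells in each of the 3 KO (red) and 3 WT (blue) HP1a libraries of Tconv with Treg. The neutrophil and erythroid sums of every KO library lie above those of every WT library, and the CD4 T cell sums lie below.

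The deleted gene itself is the check on the labels. Cbx5 stood at 15.7, 18.8 and 19.7 CPM in the KO libraries and at 47.0, 34.5 and 61.9 CPM in the WT libraries. Every KO library was below every WT library, yet transcripts of the locus were still read, at a log2 difference of -1.42 ± 0.25 (standard error, SE; 3 against 3 libraries; adjusted p = 0.086 by the quasi-likelihood test of edgeR after Benjamini-Hochberg adjustment). DESeq2 gave an adjusted p of 4.3e-05 for it. In naive cells the KO libraries held 9.25 to 12.2 CPM of Cbx5 and the WT libraries 18.6 to 24.7 CPM, and in Tconv without Treg 13.9 to 16.0 CPM and 26.0 to 30.2 CPM. The counts are per gene, so which exons the remaining reads covered was not analysed here. The paralogs did not pass: Cbx1 had a log2 difference of -0.56 (adjusted p = 0.396, edgeR) and Cbx3 of -0.04 (adjusted p = 0.948, edgeR). For Cbx1 every KO library was still below every WT library, at 39.3 to 48.0 CPM against 49.3 to 82.8 CPM. Of all genes tested, 9.84% had KO below WT without overlap. Of the 20 genes on the list of HP1 proteins and writers, readers and erasers of H3K9 methylation, 0 were called by edgeR, 2 had an unadjusted p under 0.05 and DESeq2 called 1, Cbx5. Their median log2 difference was 0.07, beside -0.01 over all 16256 genes tested.

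A gene was called when its adjusted p was under 0.05 and its log2 difference exceeded 1 in size. By that rule edgeR called 20 genes, 7 higher and 13 lower in KO, or 0.123% of those tested. Of the same genes, 1975 (12.1%) had an unadjusted p under 0.05, 6.12% of all genes higher and 6.03% lower. DESeq2, which the study itself used, called 713 of 18591 genes (3.84%), 348 higher and 365 lower, and a fit of all 18 HP1a libraries that shares 1 estimate of the spread called 647 of 18016 (3.59%), 2.13% of all higher and 1.46% lower. All 20 genes were also called by DESeq2, in the full set and again in each of 6 fits that left out 1 library, and 18 of them by the 18-library fit, the exceptions being Rgs16 and Rrad. The edgeR calls themselves were fragile: without KO replicate 1, KO replicate 3, WT replicate 1 or WT replicate 2 no gene was called, with 1330, 1163, 1957 and 2414 genes at an unadjusted p under 0.05. Without KO replicate 2 there were 17 calls, 7 of them among the 20, and without WT replicate 3 there were 115, the 20 included.

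Among the 13 genes that fell were Spp1, Lag3, Havcr2 and Tnfrsf9. Spp1 encodes osteopontin, a secreted phosphoprotein that acts on T cells and macrophages as a cytokine. It was read at 1.64, 7.75 and 4.20 CPM in KO and at 228, 336 and 299 CPM in WT. The WT libraries lay far above the KO libraries, and the log2 difference was -6.01 ± 0.58 (adjusted p = 0.0328, edgeR). Lag3, an inhibitory receptor that binds MHC class II, was at 6.43, 3.48 and 8.14 CPM in KO against 47.0, 55.1 and 67.5 CPM in WT. It fell by 3.25 ± 0.34 on the log2 scale (adjusted p = 0.0328, edgeR), with no overlap. Havcr2, which encodes the inhibitory receptor TIM-3, was at 10.9, 6.61 and 12.6 CPM in KO and at 43.1, 44.5 and 41.3 CPM in WT, a tight WT group well above the KO libraries. Its log2 difference was -2.12 ± 0.26 (adjusted p = 0.0434, edgeR). Tnfrsf9, the costimulatory receptor 4-1BB that marks recently stimulated T cells and Treg, stood at 28.0, 44.3 and 32.3 CPM in KO and 127, 189 and 172 CPM in WT. Its log2 difference was -2.24 ± 0.24 (adjusted p = 0.0328, edgeR).

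The other genes that fell act inside the cell or outside immunity. Rgs16, a brake on G protein-coupled receptor signalling, was at 55.2, 71.9 and 71.1 CPM in KO and 249, 241 and 385 CPM in WT, for a log2 difference of -2.17 ± 0.24 (adjusted p = 0.0328, edgeR). Eea1, a tether of early endosomes, was at 46.1, 71.1 and 58.6 CPM in KO and 237, 211 and 191 CPM in WT, a log2 difference of -1.88 ± 0.20. For Igf1r, the receptor of insulin-like growth factor 1, the values were 11.4, 18.9 and 13.7 CPM against 61.9, 52.5 and 57.1 CPM, a log2 difference of -1.98 ± 0.23 (adjusted p = 0.0343, edgeR). The KO and WT libraries were apart for each of these genes. Susd2 (-1.85), Mmd (-1.60), the peroxisomal Pex11a (-2.34), the microtubule-associated Map2 (-3.30) and the uncharacterised 1700019D03Rik (-2.97) fell on the log2 scale in the same way, with KO means between 1.52 and 38.9 CPM and WT means between 14.8 and 117 CPM. Flrt2, which encodes a membrane protein known from cell adhesion and axon guidance, had no read in any KO library and 2.91, 3.0 and 2.60 CPM in WT. Against a floor of 3 counts per library it was at least 44.2-fold lower in KO. Flrt2 passed the filter on low counts through the WT libraries alone and could only be called lower, so its direction is not counted as a result. Reads were counted without strand, and 1700019D03Rik lies across Hibch on the opposite strand, so its reads cannot be told apart from those of its neighbour.

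Of the 7 genes that rose, 2 are neutrophil genes. Chil3, a chitinase-like secreted protein of granulocytes and macrophages, was at 23.0, 14.4 and 19.1 CPM in KO and 0, 0 and 0.13 CPM in WT. Ltf, the granule protein lactoferrin, was at 49.6, 35.9 and 64.5 CPM in KO and 0.391, 1.11 and 1.30 CPM in WT, a log2 difference of 5.73 ± 0.49 (adjusted p = 0.0328, edgeR). Both are themselves among the 18 neutrophil markers whose summed levels are given above, and both were also read in 2 of the 3 KO libraries of Tconv without Treg, at 5.20 and 5.47 CPM for Chil3 and 9.16 and 5.47 CPM for Ltf, and at 0 in the WT libraries. In the HP1g line with Treg, Chil3 was read in both genotypes, at 2.67 to 9.50 CPM in WT and at 27.9 and 2.64 CPM in KO. Of the 18 markers 14 passed the filter on low counts, some of them through the KO libraries alone, so their differences are not counted as a result. The share of all genes called higher was 0.0431% by edgeR and 1.87% by DESeq2. Anxa1 encodes annexin A1, a phospholipid-binding regulator of inflammation that T cells and neutrophils both make. It was at 50.7, 32.5 and 46.4 CPM in KO and 5.03, 8.21 and 4.78 CPM in WT, a rise of 2.83 ± 0.29 on the log2 scale (adjusted p = 0.0328, edgeR). Cish, a feedback inhibitor induced by cytokines that signal through STAT5, was at 173, 167 and 169 CPM in KO and 67.8, 79.0 and 70.5 CPM in WT, both groups tight and apart, with a log2 difference of 1.21 ± 0.14 (adjusted p = 0.0328, edgeR). L1cam, an adhesion molecule, rose by 1.41 from 25.7 ± 2.44 to 69.2 ± 4.5 CPM (SD, n = 3), and Rrad, a small GTPase that binds calcium channels, by 1.32 from 26.5 ± 1.82 to 66.9 ± 3.04 CPM (SD, n = 3).

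Slc15a2, a proton-coupled peptide transporter, had a pattern of its own. It was at 15.0, 10.8 and 11.3 CPM in KO and at 0.489, 1.11 and 0.467 CPM in WT, a log2 difference of 4.14 ± 0.45 (adjusted p = 0.0328, edgeR). In naive cells both genotypes expressed it, with 4.21 to 15.3 CPM in KO and 11.1 to 17.3 CPM in WT. In Tconv without Treg it stood at 7.36 to 9.87 CPM in KO and 0.0272 to 0.0537 CPM in WT, which is under the floor of 3 counts in each of those WT libraries. The level in KO thus stayed within 4.21 to 15.3 CPM in all 3 states, and within the HP1a line the low level was seen in WT Tconv only. The difference between the genotypes was smaller with Treg than without (log2 difference of the KO effects -3.48, adjusted p = 0.0492, edgeR interaction test), a fitted value that rests on the WT group under the floor. Slc15a2 overlaps the predicted gene Gm56626 on the same strand, and the deposited counting could split reads between them.

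**Figure D2:**
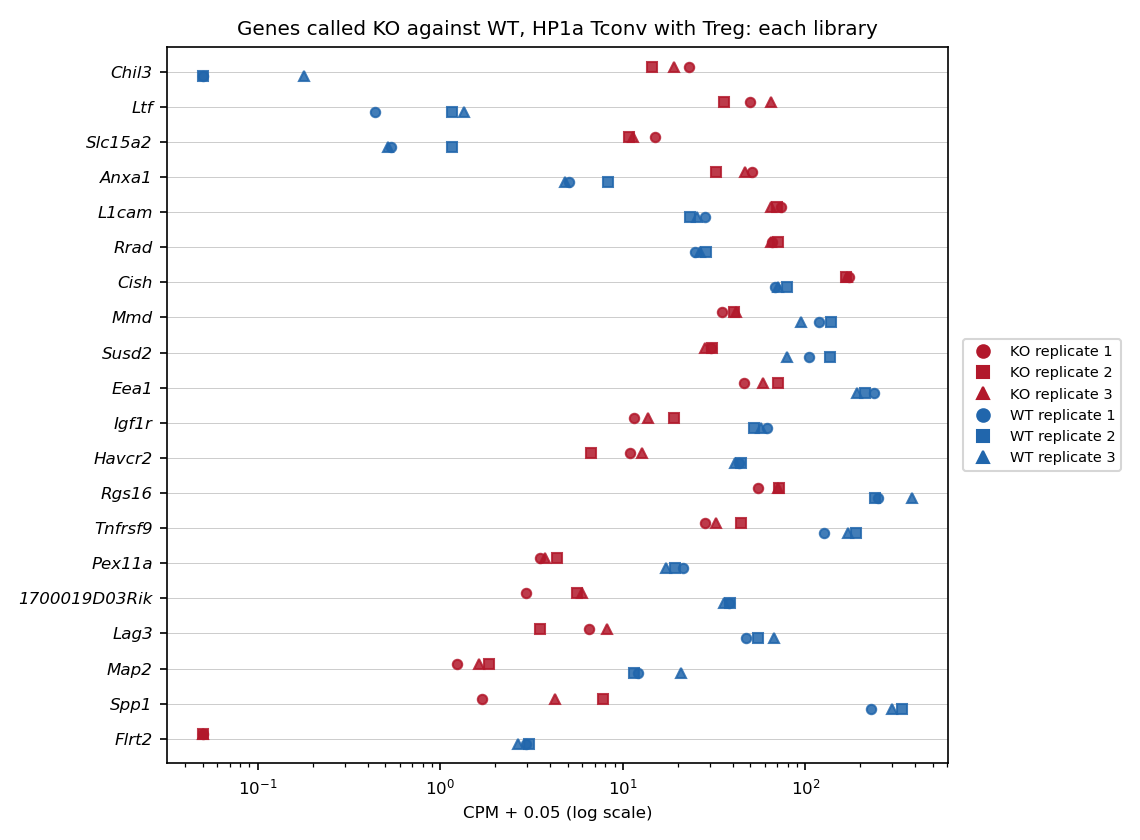
CPM (log scale, with 0.05 added) of the 20 genes called by edgeR in each KO (red) and WT (blue) library, with replicates 1, 2 and 3 as circle, square and triangle. No gene has a KO library inside the WT range, and points at the left edge are libraries with 0 reads.

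The bases before the start of the canonical transcript are shown for the genes with the lowest and the highest log2 differences among the called protein-coding genes, as the sequence a reader would search first. Capitals mark matches on either strand to AP-1 (TGANTCA), Runx (TGTGGT), T-box (AGGTGT), C/EBP (TTGCNNAA) and TATA box (TATAAA) letters. The windows are 250 bases from GRCm39, written 5′ to 3′ along the gene.
Spp1 chr5:104581915-104582164 (+ strand): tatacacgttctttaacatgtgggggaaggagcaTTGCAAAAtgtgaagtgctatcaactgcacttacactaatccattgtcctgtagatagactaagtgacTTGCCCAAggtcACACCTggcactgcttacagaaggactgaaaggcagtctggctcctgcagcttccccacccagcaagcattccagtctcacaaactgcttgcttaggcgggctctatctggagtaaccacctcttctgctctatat
Flrt2 chr12:95661682-95661931 (+ strand): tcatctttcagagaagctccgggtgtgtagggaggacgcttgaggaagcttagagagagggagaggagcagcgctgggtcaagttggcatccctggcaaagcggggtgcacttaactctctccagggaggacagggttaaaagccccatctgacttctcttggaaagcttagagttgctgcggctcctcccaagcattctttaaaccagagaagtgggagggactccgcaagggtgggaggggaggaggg
Chil3 chr3:106074881-106075130 (- strand): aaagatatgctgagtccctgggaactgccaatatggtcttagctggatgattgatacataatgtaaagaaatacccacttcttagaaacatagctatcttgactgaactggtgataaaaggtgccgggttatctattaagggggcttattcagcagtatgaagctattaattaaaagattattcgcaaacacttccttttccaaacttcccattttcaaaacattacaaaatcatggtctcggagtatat
Ltf chr9:110848089-110848338 (+ strand): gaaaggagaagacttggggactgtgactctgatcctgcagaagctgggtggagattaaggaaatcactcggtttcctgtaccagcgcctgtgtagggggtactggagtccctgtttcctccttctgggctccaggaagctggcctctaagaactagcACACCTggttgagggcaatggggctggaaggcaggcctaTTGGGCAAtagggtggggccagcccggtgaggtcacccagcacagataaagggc
C/EBP letters stood in the windows of Spp1 and Ltf, 1 of which fell and 1 of which rose, and a T-box match in the same 2 windows. Those of Flrt2 and Chil3 held no match to these 5 motifs. Over the 20 called genes, 3 windows held the C/EBP letters (9.34% of 21770 protein-coding genes), 3 the T-box letters (12.3%), 2 the AP-1 letters (6.17%; Havcr2 and Tnfrsf9), 0 the Runx letters (13%) and 0 the TATA box letters (11.9%). The short letters of the NFAT core (GGAAA) and of the E-box (CANNTG), which are not capitalised, were in 8 and 12 windows, against 58.0% and 64.8% of all windows, and an E-box can overlap a T-box match. A match describes letters and not binding.

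The inhibitory receptors, which dampen T cell activation, had values of both signs. Of 16 tested, edgeR called 2 lower, Lag3 and Havcr2, and 0 higher, where 0.08% of all genes were called lower. DESeq2 called 5 lower and 1 higher, where 1.96% and 1.87% of all genes were called. The 18-library fit called 3 lower and 3 higher, where 1.46% and 2.13% of all genes were called. At an unadjusted p under 0.05, 6 were lower and 4 higher, where 6.03% and 6.12% of all genes were. The median log2 difference of the 16 receptors was 0.05. Pdcd1, which encodes PD-1, was at 112, 147 and 98.8 CPM in KO and 548, 472 and 266 CPM in WT, with no overlap and a log2 difference of -1.86 ± 0.29 that missed the threshold in edgeR (adjusted p = 0.0752) and passed in DESeq2 (adjusted p = 3.5e-07). Ctla4, the CD80 and CD86 receptor that restrains T cell activation, was at 102, 168 and 160 CPM in KO against 296, 340 and 372 CPM in WT (-1.25, adjusted p = 0.0872, edgeR), and Tigit at 24.2, 54.1 and 28.4 CPM against 118, 68.3 and 128 CPM (-1.58, adjusted p = 0.15, edgeR). For these receptors every KO library was below every WT library. Cd96 had the opposite sign, with 258, 258 and 225 CPM in KO and 91.8, 175 and 99.4 CPM in WT (1.0, adjusted p = 0.185, edgeR), and it was the receptor that DESeq2 called higher. Btla (-0.20), Klrg1 (0.03), Cd101 (0.07) and Vsir (0.18) were near 0 on the log2 scale.

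Regulators of exhaustion and anergy had mostly negative values in KO, and none passed in edgeR. Of 23 tested, 18 had a negative log2 difference (median -0.83), 10 had an unadjusted p under 0.05, all lower, and DESeq2 called 7, all lower. Over all genes 6.03% were lower at an unadjusted p under 0.05 and 1.96% were called lower by DESeq2. The DESeq2 count of 7 was 4 without KO replicate 3 and up to 10, without KO replicate 2. Tox, which drives and maintains the exhausted state, was at 110, 160 and 131 CPM in KO and 395, 362 and 646 CPM in WT (-1.83 ± 0.28, adjusted p = 0.0715, edgeR; 1.9e-07, DESeq2). Eomes, the T-box factor of late effector and exhausted cells, was at 29.9, 43.6 and 39.8 CPM against 130, 82.0 and 265 CPM (-2.10, adjusted p = 0.112, edgeR). Batf, an AP-1 factor of activated T cells, was at 98.5, 119 and 97.8 CPM against 224, 197 and 218 CPM (-1.04, adjusted p = 0.0656, edgeR), and the ubiquitin ligase Rnf128 at 12.7, 9.99 and 9.26 CPM against 26.3, 37.6 and 23.4 CPM (-1.47, adjusted p = 0.0791, edgeR). In each of these genes the groups were apart. Maf, Ikzf2 and the folate receptor 4 gene Izumo1r had log2 differences of -1.50, -1.66 and -1.55 and passed in DESeq2 only. The early response factor Nr4a1 (0.58) and the diacylglycerol kinase Dgka (0.51) had positive values that passed in neither tool. The study's own exhaustion set, assembled from the literature and tested by it on these samples, is no independent evidence: of 96 members tested, 78 had a negative value, edgeR called 5 lower (Spp1, Lag3, Tnfrsf9, Rgs16 and Havcr2) and 0 higher, and DESeq2 called 26 lower and 0 higher.

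Follicular helper genes had a median of -1.38 over 14 genes. EdgeR called 0 of them, with 8 at an unadjusted p under 0.05, DESeq2 called 7 and the 18-library fit 8, all lower, where 6.03%, 1.96% and 1.46% of all genes were lower by the same rules. When 1 library was left out the median ranged from -1.79 to -1.04 and the DESeq2 count from 4, without KO replicate 1 or KO replicate 3, to 9, without KO replicate 2 or WT replicate 3. Ascl2, a transcription factor that starts follicular helper differentiation, was at 0.215, 0.273 and 0.249 CPM in KO and at 19.6, 22.7 and 1.90 CPM in WT (-5.90 ± 0.94, adjusted p = 0.0752, edgeR; 4.6e-12, DESeq2). WT replicate 3 was the low library of its group for Ascl2. It was low too for Angptl2, with 371, 339 and 59.4 CPM in WT and 19.9, 57.2 and 53.9 CPM in KO, and for Pou2af1, with 60.0, 77.2 and 14.4 CPM in WT and 7.62, 22.3 and 13.8 CPM in KO. Il21, the cytokine that acts on germinal centre B cells, was at 315, 251 and 104 CPM in WT and 16.0, 71.3 and 49.4 CPM in KO (-2.30, adjusted p = 0.187, edgeR). Bcl6 (-0.95) and Cxcr5 (-1.01) overlapped between the groups, and without WT replicate 3 edgeR called 2 genes of the list.

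Among the 16 Treg and Tr1 genes edgeR called Tnfrsf9 alone, lower. Of the 16, 8 had an unadjusted p under 0.05, DESeq2 called 5 and the 18-library fit 4, all lower. Over all genes, edgeR called 0.08% lower and 6.03% were lower at an unadjusted p under 0.05. DESeq2 called 1.96% of all genes lower and the 18-library fit 1.46%. The median of the list was -0.73. It was -0.26 without WT replicate 2 and -1.01 without KO replicate 2. Il10, the suppressive cytokine of Tr1 cells, was at 3.23, 5.17 and 12.3 CPM in KO and 53.6, 45.1 and 124 CPM in WT, apart by a log2 difference of -3.45 ± 0.61 (adjusted p = 0.086, edgeR; 5.8e-08, DESeq2). Foxp3, the lineage factor of Treg, did not separate the genotypes, with 8.57, 34.8 and 16.3 CPM in KO and 13.5, 69.2 and 18.1 CPM in WT (-0.76, adjusted p = 0.71, edgeR). Itgb8 (-2.41), Gpr83 (-1.93) and the receptor OX40, encoded by Tnfrsf4 (-1.19), missed the threshold in edgeR and passed in DESeq2.

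Secreted effector molecules had values of both signs. Of 20 tested cytokines and ligands edgeR called Spp1 alone, where 0.08% of all genes were called lower. Il2, the T cell growth factor, was at 16.6, 21.5 and 13 CPM in KO and 5.40, 8.93 and 4.99 CPM in WT, apart but past the threshold in DESeq2 only (1.39 ± 0.32, adjusted p = 0.146, edgeR; 0.0021, DESeq2). Ccl3 and Ccl4, chemokines secreted by activated T cells, had log2 differences of -4.40 (adjusted p = 0.0773, edgeR) and -4.11 (adjusted p = 0.0928, edgeR). Ccl3 stood at 32.2, 11.8 and 33.6 CPM in KO and 286, 260 and 1060 CPM in WT, WT replicate 3 being the highest. Ifng, the Th1 cytokine, was at 346, 106 and 252 CPM in KO and 315, 303 and 568 CPM in WT, and the groups overlapped (-0.78, adjusted p = 0.53, edgeR). Tbx21, the Th1 lineage factor, was at 188, 51.2 and 144 CPM in KO and 92.4, 65.3 and 50.8 CPM in WT, again with overlap (0.86, adjusted p = 0.495, edgeR). Of all genes, 6.12% were higher at an unadjusted p under 0.05, edgeR called 0.0431% higher, and DESeq2 called 1.87% higher and 1.96% lower. Of 18 Th1 genes edgeR called 0, 5 had an unadjusted p under 0.05, all higher, and DESeq2 called 2, the receptor chains Il18r1 (1.05) and Ifngr1 (1.13). Leaving out KO replicate 1 made the DESeq2 count 0, leaving out WT replicate 1 made it 1 and leaving out KO replicate 2 made it 4. In the study's own Th1 set, which is likewise no independent evidence, 46 of 70 tested members had a positive value, edgeR called Anxa1 higher and 0 lower, and DESeq2 called 9 higher and 3 lower. Of 16 Th17 genes and 8 Th2 genes edgeR called 0, with 3 and 2 at an unadjusted p under 0.05, all higher. DESeq2 called 0 and 1 of them, the Th2 gene being Il4ra (1.20). Without WT replicate 2, DESeq2 called 7 Th17 and 2 Th2 genes higher, and without each other library at most 1 of either list in either direction. The Th17 median of 0.64 was 1.05 without WT replicate 2 and 0.35 without WT replicate 1.

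Homing receptors had mostly positive values. Of 22 homing receptors 19 had a positive log2 difference (median 0.94), 12 had an unadjusted p under 0.05, all higher, and DESeq2 called 7 higher and 0 lower, where 6.12% and 1.87% of all genes were higher by these rules. The DESeq2 count was 3 without KO replicate 1 or KO replicate 3 and 4 without WT replicate 1. Of 22 genes of naive and memory cells 16 had a positive value (median 0.28), edgeR called 0, 8 were higher and 3 lower at an unadjusted p under 0.05, and DESeq2 called 3 higher and 0 lower. Solute carriers and metabolic genes were centred on 0, with 13 of 24 positive (median 0.02), and the edgeR call among them was Slc15a2. Itga1, the collagen-binding integrin chain of tissue-resident T cells, was at 9.84, 4.08 and 5.73 CPM in KO and 1.02, 1.31 and 1.43 CPM in WT (2.37 ± 0.45, adjusted p = 0.0961, edgeR; 1.0e-05, DESeq2). Cxcr2, a neutrophil chemokine receptor on the same list, was at 1.44, 0.547 and 6.45 CPM in KO and at most 0.137 CPM in WT, beside the neutrophil markers. It passed the filter on low counts through the KO libraries alone and could only add to the positive values. Its part in the counts of the homing list is therefore no result. Il7r, the interleukin 7 receptor chain of naive and memory cells, was at 438, 280 and 378 CPM in KO and 55.0, 167 and 102 CPM in WT (1.74 ± 0.39, adjusted p = 0.134, edgeR; 0.00054, DESeq2). Slc2a3, the glucose transporter GLUT3, was at 85.7, 67.9 and 75.5 CPM against 32.5, 32.9 and 25.7 CPM, just outside the edgeR threshold (1.31 ± 0.17, adjusted p = 0.0522). Cd226, the activating receptor that shares ligands with TIGIT and CD96, was at 157, 97.2 and 116 CPM against 36.5, 52.7 and 47.6 CPM (1.42 ± 0.23, adjusted p = 0.0761, edgeR; 6.4e-06, DESeq2). The KO and WT libraries were apart for Itga1, Il7r, Slc2a3 and Cd226. The interferon-stimulated genes had 1 DESeq2 call among 20, Oas3 (1.65, adjusted p = 0.0579 by edgeR and 5.1e-08 by DESeq2).

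Genes of cell division had small negative values in KO. All 20 proliferation genes had a negative log2 difference, with a median of -0.43, yet edgeR and DESeq2 called 0, and 3 had an unadjusted p under 0.05. Their median was -0.25 without WT replicate 1 and -0.28 without KO replicate 1, and DESeq2 called 2 without KO replicate 2. Beside these counts and those that follow, 6.12% of all genes were higher and 6.03% lower at an unadjusted p under 0.05. DESeq2 called 1.87% of all genes higher and 1.96% lower. T cell receptor signalling genes were centred on 0 (median 0.07 over 24), with 3 at an unadjusted p under 0.05 higher and 6 lower, and 0 calls by either tool. Costimulation genes had 0 edgeR calls among 19, with 2 higher and 8 lower at an unadjusted p under 0.05, and 5 DESeq2 calls, 4 lower and 1 higher (Cd226). The 4 lower calls became 0 without KO replicate 1, 1 without KO replicate 3 or WT replicate 2 and 2 without WT replicate 1. Of the 19 cytotoxic and chemokine ligand genes edgeR called 0, 6 had an unadjusted p under 0.05 and DESeq2 called 4, all lower. Their median of -0.68 became -1.43 when KO replicate 1 was left out, -1.04 when WT replicate 2 was and -0.42 when WT replicate 3 was, and DESeq2 called 7 lower without WT replicate 2 and 2 without WT replicate 3.

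**Figure D3:**
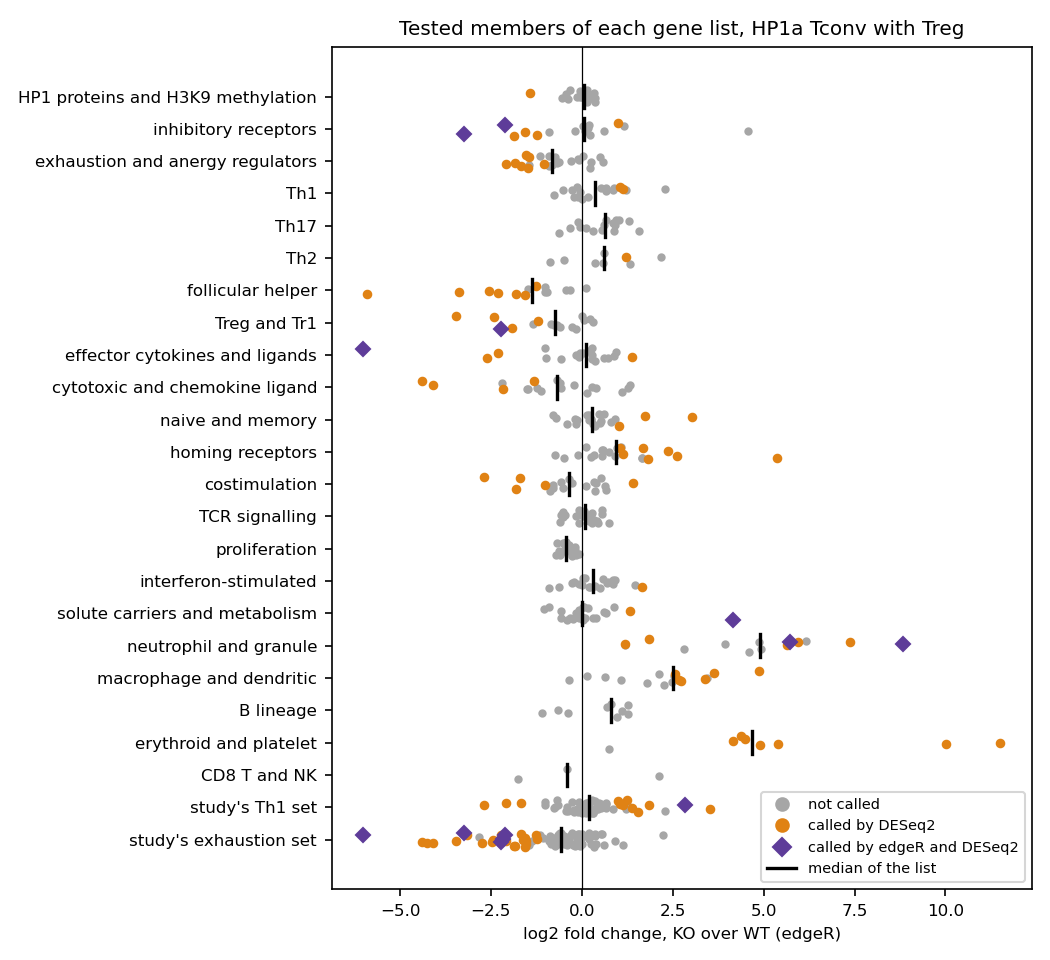
Log2 difference KO over WT (edgeR) of each tested member of 24 gene lists, with the list median as a black bar, DESeq2 calls in orange and genes called by both tools as purple diamonds. The follicular helper and exhaustion lists lie left of 0, and the neutrophil, macrophage and erythroid marker lists lie right of it.

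Genes near the deleted locus were counted apart. Of 106 tested genes within 5 Mb of Cbx5, edgeR called 0 and DESeq2 3 (2.83%, beside 3.84% of all genes), and 22.6% had no overlap between the genotypes, beside 21.5% of all genes.

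Whether the KO effect depended on Treg was tested as the difference between the KO effect with Treg and that without, over 12 libraries. That test called 24 of 17205 genes (0.139%), 14 with a more positive (0.0814%) and 10 with a more negative (0.0581%) KO effect under Treg. Of the 20 genes above, 11 were among them. The 20 had been picked by the KO effect with Treg, which enters this test too, so that count is no independent result. Lag3 was at 0.623 to 0.699 CPM in KO and 0.510 to 1.0 CPM in WT without Treg, and the effects differed by -2.95 on the log2 scale (adjusted p = 0.0371, edgeR interaction test). For Spp1 the levels without Treg were 0.715 to 0.882 CPM in KO and 1.42 to 2.25 CPM in WT, and the effects differed by -4.89 (adjusted p = 0.0119). Eea1 (-2.05, adjusted p = 0.0051), Mmd (-1.78, adjusted p = 0.00582), Igf1r (-2.19, adjusted p = 0.0415) and Pex11a (-2.02, adjusted p = 0.0464) were also more negative under Treg. On the positive side were Anxa1 (3.68, adjusted p = 0.0051), Cish (1.23, adjusted p = 0.0119), L1cam (1.46, adjusted p = 0.00916) and Rrad (1.62, adjusted p = 0.00972). Slc2a3 (1.68, adjusted p = 0.0051) and Itga1 (2.95, adjusted p = 0.0199) passed this test although neither was called with Treg by edgeR. Without Treg, Anxa1 stood at 90.8 to 144 CPM in KO and 169 to 239 CPM in WT, and Slc2a3 at 170 to 190 CPM and 210 to 243 CPM. For Havcr2 (adjusted p = 0.0562), Rgs16 (adjusted p = 0.0856) and Tnfrsf9 (adjusted p = 0.129) the difference missed the threshold in the edgeR interaction test.

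Beside the naive cells and the Tconv without Treg, the levels with Treg show where KO and WT parted. Lag3 in WT was at most 0.037 CPM in naive cells, up to 1.0 CPM in Tconv and 47.0 to 67.5 CPM with Treg, whereas KO with Treg reached 3.48 to 8.14 CPM. Il7r was at 559 to 625 CPM in naive WT cells, at 467 to 639 CPM in WT Tconv and at 55.0 to 167 CPM in WT with Treg, and KO with Treg held 280 to 438 CPM. Cish was at 365 to 474 CPM in WT Tconv and 67.8 to 79.0 CPM in WT with Treg, and KO with Treg held 167 to 173 CPM. In all 3 genes the KO libraries with Treg lay between WT Tconv without Treg and WT Tconv with Treg.

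**Figure D4:**
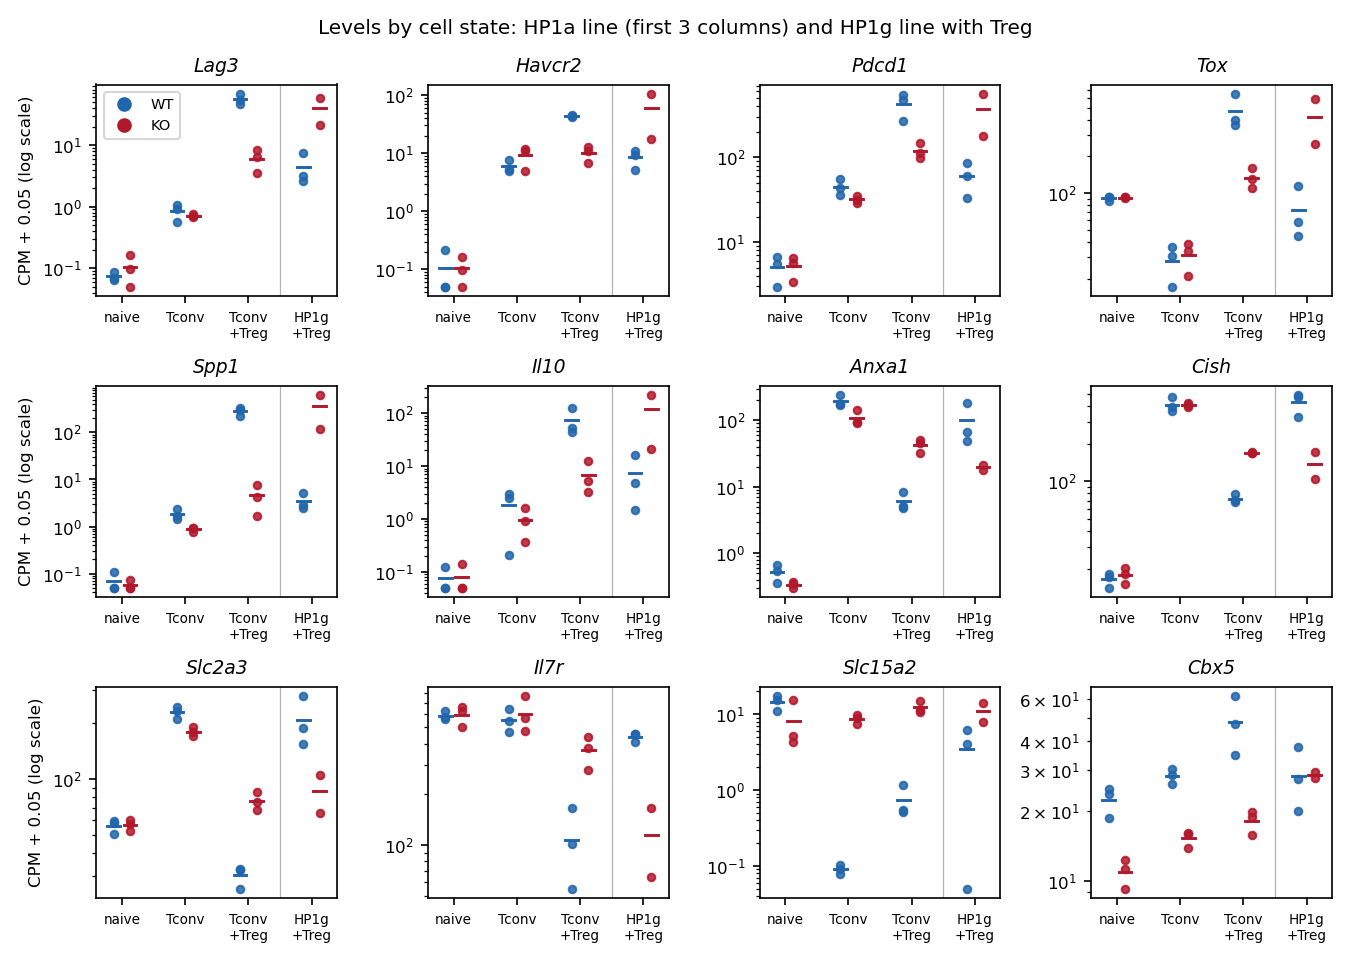
CPM (log scale, with 0.05 added) of 12 genes in naive cells, Tconv and Tconv with Treg of the HP1a line and, right of the grey line, in HP1g Tconv with Treg, with WT in blue, KO in red and bars for group means. For Lag3, Spp1 and Il10 the KO libraries with Treg lie below the WT libraries with Treg and above KO Tconv without Treg, and in the HP1g line the KO libraries lie above WT.

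The HP1g line, in which HP1γ was deleted with Cd4-cre and the controls carried the floxed alleles without Cre, offered a contrast of the same labels with other libraries, 2 KO and 3 WT. The conditions were not shown to be equal. The paper states that, at the Tconv to Treg ratio of its HP1g experiment, the response of WT cells was not effectively repressed. For the HP1a line it reports a gene set that Treg strongly inhibited in WT cells. The third HP1g KO library of that group was left out, taken as the RNA-seq sample that the study excluded for poor quality. The difference between the KO effect in the HP1a line and that in the HP1g line was called for 506 of 18573 genes (2.72%), 176 with a more positive (0.948%) and 330 with a more negative (1.78%) value in the HP1a line. Of the 20 genes, 18 were called, 6 positive and 12 negative, all with the sign they had in the HP1a line, and Flrt2 and Slc15a2 were not (adjusted p = 0.069 and 0.478, edgeR). The 20 genes had been picked by the KO effect in the HP1a libraries, which this test uses again. Their count and signs are therefore no independent result beside the share of all genes. Lag3 was at 21.2 and 59.0 CPM in HP1g KO and at 2.61 to 7.45 CPM in HP1g WT, and the effects of the lines differed by -6.44 (adjusted p = 0.0053, edgeR). Spp1 was at 119 and 621 CPM in HP1g KO and 2.48 to 5.10 CPM in HP1g WT (-12.75, adjusted p = 0.00147, edgeR). Pdcd1 (-4.47, adjusted p = 0.0137, edgeR) and Tigit (-3.47, adjusted p = 0.0233, edgeR) were called in this test as well.

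The WT groups of both lines, which share the label Tconv with Treg, were not alike at these genes, and the test of the lines rests on them as much as on the KO groups. Spp1 was at 228 to 336 CPM in HP1a WT and 2.48 to 5.10 CPM in HP1g WT, Lag3 at 47.0 to 67.5 CPM and 2.61 to 7.45 CPM, Pdcd1 at 266 to 548 CPM and 32.7 to 86.3 CPM, and Il7r at 55.0 to 167 CPM and 410 to 457 CPM. The HP1a range lay wholly above the HP1g range at the first 3 genes and wholly below it at Il7r. The cause was not tested, and line, experiment and degree of suppression by Treg cannot be told apart. With the third HP1g KO library included, 12 genes were called instead of 506. Single libraries moved the count too: it was 51 without HP1g KO replicate 1, 903 without HP1g KO replicate 2, 157, 86 and 336 without HP1g WT replicates 3, 2 and 1, 120 and 70 without HP1a KO replicates 1 and 3, and 258 without HP1a WT replicate 1.

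**Figure D5:**
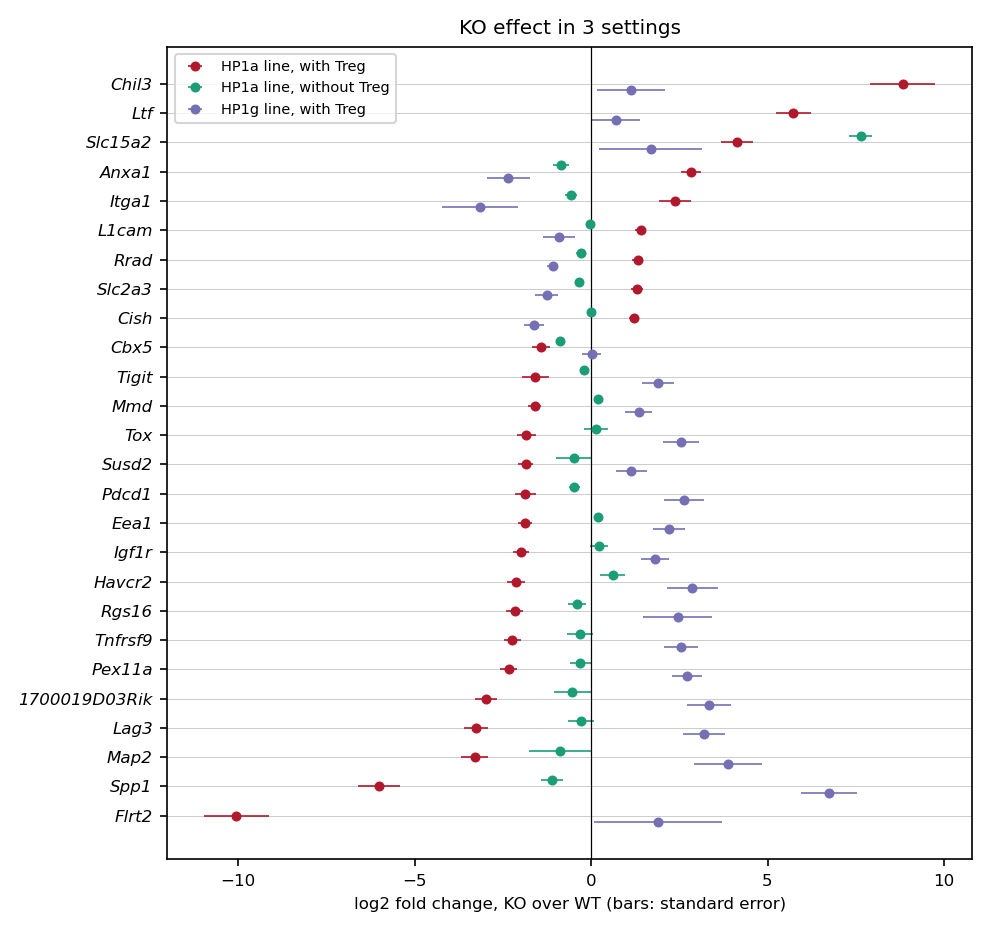
Log2 difference KO over WT with its standard error for the 20 called genes and for Cbx5, Itga1, Slc2a3, Tigit, Tox and Pdcd1, in the HP1a line with Treg (red), the HP1a line without Treg (green) and the HP1g line with Treg (purple). The 20 genes other than Chil3, Ltf and Slc15a2 have opposite signs in the HP1a and HP1g lines with Treg, a gene too low to test in a setting has no point there, and the green point of Slc15a2 rests on WT libraries under the floor of 3 counts.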

How the data were processed

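RNA from sorted splenic CD4 T cells had been made into SMART-Seq libraries, which do not keep strand, and sequenced in pairs of 150 bases. The authors aligned the reads with STAR to GRCm39 and quantified genes with Salmon, per the labels, and deposited estimated counts per gene, of which 82.9% were whole numbers. Here the estimated counts were rounded to whole numbers. Genes with low counts were removed with edgeR's filterByExpr, libraries were scaled by TMM, and KO and WT were compared with the quasi-likelihood test of edgeR (4.0.16, R 4.3.3), adjusted by Benjamini-Hochberg over all tested genes. Calls needed an adjusted p under 0.05 and a log2 fold change over 1 in size. DESeq2 1.42.0 was the alternative tool, and the DESeq2 fits without single libraries were added after seeing the data. The scripts were tested on simulated data. SEs are the log2 difference divided by the root of the test's F. The difference from the KO effect without Treg used 12 libraries, and that between the lines 11, since HP1g KO replicate 3 was left out. Named genes were Cbx5 and its paralogs, every called gene, the called and up to 5 most changed members of each list above 5 CPM, and the most extreme genes that DESeq2 alone called. Other list members were named after their values were seen. Members, lists and tests were chosen with earlier results of these data known. Promoter windows and gene positions came from GRCm39 and GENCODE. Depth was 37910080 to 53820942 counts per library, so 3 counts correspond to 0.0534 to 0.0779 CPM, for counting error only.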

Additional observations from a re-analysis of the deposited data

Results flagged for a closer look

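Among the 129 named genes, the KO effect in the HP1a line differed between Tconv with Treg and Tconv without Treg by the edgeR interaction test in 13 genes. Over all genes tested, this test called 0.139%. Of the 13, 11 are among the 20 called genes. Named genes were mostly picked by the KO effect with Treg, which enters this test, so the count is no independent result. The difference of the effects on the log2 scale was positive for Anxa1 (3.68), Cish (1.23), Itga1 (2.95), L1cam (1.46), Rrad (1.62) and Slc2a3 (1.68), and negative for Eea1 (-2.05), Igf1r (-2.19), Lag3 (-2.95), Mmd (-1.78), Pex11a (-2.02), Slc15a2 (-3.48) and Spp1 (-4.89). Slc15a2 was higher in KO in both settings. Its WT libraries without Treg were under the floor of 3 counts, so the size of the KO effect there is not fixed by these reads.

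With Treg, the KO effect differed between the HP1a and the HP1g line by the same kind of test in 20 of the called genes and inhibitory receptors. Over all genes tested, that test called 2.72%. The called genes had been picked by the HP1a effect, which enters it, so this count is no independent result either. The HP1a effect minus the HP1g effect on the log2 scale was positive for Anxa1 (5.18), Chil3 (7.73), Cish (2.84), L1cam (2.33), Ltf (5.03) and Rrad (2.42), and negative for 1700019D03Rik (-6.30), Eea1 (-4.08), Havcr2 (-4.96), Igf1r (-3.78), Lag3 (-6.44), Map2 (-7.17), Mmd (-2.93), Pdcd1 (-4.47), Pex11a (-5.04), Rgs16 (-4.60), Spp1 (-12.75), Susd2 (-2.98), Tigit (-3.47) and Tnfrsf9 (-4.77). Dixon's test for an outlying value was not run, since no group held more than 3 libraries.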

How the results depend on the processing

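The edgeR count of 20 genes for KO against WT with Treg was 21 with RLE size factors and 20 without a fold threshold. It was 713 with DESeq2, 177 without a filter on low counts, 647 in the fit of all 18 HP1a libraries and 0 to 115 when 1 library was left out, the highest without WT replicate 3. With DESeq2 the count ran from 390 without KO replicate 3 to 878 without WT replicate 2, and 252 of the 713 genes were called in all 6 such fits, the 20 included. For the KO effect with against without Treg the 24 calls became 356 with DESeq2, 65 without a filter, 124 in the 18-library fit and 9 to 91 without single libraries, the lowest without HP1a WT Tconv replicate 3, the highest without WT replicate 3 with Treg; it stayed within 1.5 times of 24 without HP1a KO Tconv replicate 1 or WT replicate 1 with Treg. For the lines the 506 calls became 1447 with DESeq2, 738 without a filter, 12 with HP1g KO replicate 3 and 51 to 903 without single libraries. The causes were not tested. Cbx3 ranged from -0.15 to 0.16 (0.16 without WT replicate 3, 0.07 without KO replicate 3) and Cd22, a B cell receptor of 0.69 on the log2 scale with all libraries, was -0.59 without KO replicate 2 and up to 1.31 otherwise. No other gene named by the rule changed sign under these alternatives.

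Replicate numbers are shared by the groups, but libraries with the same number did not deviate together (correlations of -0.119, 0.143 and -0.01). These are deviations from means of 3 libraries, which are too few to decide whether equal numbers mark paired libraries, and the labels do not say. With a replicate block the counts were 5 for KO against WT, 19 for the difference with and without Treg and 274 for the lines. Of the 5, 3 were among the 20.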

Other observations

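DESeq2 called genes that edgeR did not. Among those of at least 5 CPM in 1 group and without overlap, the lowest after Ascl2 were Enpp6 (-5.22), Gcg, the glucagon gene (-5.06), Ociad2 (-4.62) and Fbn2, a microfibril protein (-4.54), given as edgeR log2 differences. The highest were genes of red cells and phagocytes: Slc4a1, the red cell anion exchanger, had 0 reads in every WT library and was at least 117-fold higher in KO, and Mertk, a receptor for apoptotic cells on macrophages, was at least 77.1-fold higher, both against a floor of 3 counts per library. Cd177 (7.38), Lcn2 (5.95) and Csf3r (5.64), all on the neutrophil list, followed. Cd177 was also read in naive cells of the HP1a line, at 3.61 to 6.5 CPM in KO and 2.49 to 3.22 CPM in WT. In all, 20 of the 713 DESeq2 calls were on the marker lists of other cell types, and all 20 were higher in KO, where 1.87% of all genes were called higher. Markers such as Slc4a1, at 0 in every WT library, could only be called higher. These 20 calls and their direction are therefore not counted as a result.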
